A study of Mus musculus with 2 samples.

Results

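Penk-rich excitatory nuclei without other peptides were a group of 167 among 7610 single nuclei of the spinal dynorphin lineage. A nucleus belonged to the group when it held at least 1 UMI (unique molecular identifier, a counted RNA molecule) of Slc17a6, no UMI of Gad1, Gad2, Slc32a1 or Slc6a5, no UMI of Pdyn, Tac1, Adcyap1, Cck or Tac2, and at least 2 UMIs of Penk. These nuclei, selected on their measured UMIs of these 11 genes, are called members here. The comparison group held 733 nuclei with the same transmitter gate and no Penk UMI, called Penk-free nuclei, of which 284 also held none of the other 5 peptides. The library of the injured pool gave 87 members and 371 Penk-free nuclei, and the library of the naive pool gave 80 members and 362 Penk-free nuclei.

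Nuclear RNA had been read with 10x Genomics droplets from GFP-sorted nuclei of the lumbar dorsal cord of adult mice. All mice of both pools carried 1 copy of Pdyn-IRES-Cre, which puts Cre under the prodynorphin gene, and 1 copy of R26-LSL-Sun1.eGFP, a reporter that labels the nuclear envelope once Cre has acted. The injured pool came from 8 mice whose left plantar hindpaw had been incised on postnatal day 3, and the naive pool from 8 littermates exposed to isoflurane at that age. The sort gates on lineage, so a nucleus in it may have used Pdyn only earlier in life, and each group is 1 pooled library of both sexes.

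Penk encodes proenkephalin, from which cells cut the enkephalins, small opioid peptides that act mainly on delta and mu opioid receptors. Slc17a6 encodes the vesicular glutamate transporter of most excitatory neurons of the dorsal horn, and the 4 absent genes make or carry GABA and glycine. In the dorsal horn, enkephalin is known from inhibitory and excitatory interneurons that shape pain and itch signals.

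The rule itself fixed the following values, which are a description. Members held a median of 2 Penk UMIs in the injured library and 3.5 in the naive library, with highest values of 10 and 29. Of the injured members 45 held exactly 2 Penk UMIs and 1 held 10 or more, and of the naive members 27 held exactly 2 and 6 held 10 or more. Summed over members, Penk reached 281.5 CPM (the gene's UMIs over all UMIs of the summed nuclei, scaled to 1e6) in the injured and 445.2 CPM in the naive library. Just outside the rule lay 99 nuclei with exactly 1 Penk UMI and none of the other peptides. Penk (ENSMUSG00000045573) lies on mm10 chromosome 4 from 4133531 to 4138819, minus strand, and Slc17a6 (ENSMUSG00000030500) on chromosome 7 from 51622006 to 51671119, plus strand.

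The 2 libraries held 32934588 UMIs in 3547 injured nuclei and 30602222 UMIs in 4063 naive nuclei, with medians of 8464 and 6955 per nucleus. Members were deeper, with medians of 10760 UMIs (injured) and 9527 (naive), against 9681 and 7726.5 in Penk-free nuclei. In all, 3 cell barcodes occurred in both libraries, and the 167 members had 167 distinct barcodes. Free RNA was gauged in nuclei with oligodendrocyte markers, which should lack Penk. Among these, 2 of 50 injured nuclei held 2 Penk UMIs or more (4%, 95% exact binomial interval 0.488 to 13.7). Of 41 naive nuclei 0 did (interval 0 to 8.6), and the median depths were 2760 and 2195 UMIs. In excitatory-gated nuclei the same share was 26.9% of injured and 30.8% of naive nuclei, at median depths of 10107 and 8271 UMIs, and in inhibitory nuclei it was 7.58% and 10.2%.

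Markers outside the rule were present in members in part. Lmx1b, a transcription factor of dorsal horn excitatory neurons, stood at 107.3 CPM in injured and 118.7 CPM in naive members, against 114.3 and 111 CPM in Penk-free nuclei. In Penk-rich inhibitory nuclei (no Slc17a6, 2 or more inhibitory UMIs) it stood at 2.85 CPM (injured) and 3.77 CPM (naive). Tlx3, another such factor, was found in 12.6% of injured and 11.2% of naive members, against 9.16% and 11.3% of Penk-free nuclei, and Lbx1 had no UMI in any member and 3 and 4 UMIs in Penk-free nuclei. Pax2, which marks inhibitory dorsal horn neurons, had 0 UMIs in injured and 3 in naive members, while Penk-rich inhibitory nuclei had it at 234.4 and 196 CPM. Chat, Slc5a7, Isl1 and Prph of motor and sensory neurons and Pkd2l1 of neurons that contact the cerebrospinal fluid had no UMI in any member. The 6 oligodendrocyte markers summed to 74.8 CPM in injured and 153.4 CPM in naive members, against 125.3 and 79.5 CPM in Penk-free nuclei, with Opalin at 0 in members of both libraries. Of the markers of oligodendrocyte precursors, Vcan and Tnr were higher in members (Vcan not in DESeq2, adjusted p = 0.408, and Tnr not within the clusters that hold most members, adjusted p = 0.795), while Pdgfra had 1 and 0 UMIs and Cspg4 had none. Of the members, 8 injured and 3 naive held UMIs of both Xist and Y-linked genes, and doublets were not removed.

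Members were not 1 cluster of cells. The 1382 excitatory-gated nuclei were grouped into 20 clusters without the genes of the rule, and members fell into 14 of them. Cluster 10, led by Abi3bp, Ttn and Trhr, held 43 members, 17 injured and 26 naive. Cluster 6, led by Wdfy4, Prkcq and Unc5cl, held 34, of which 14 were injured and 20 naive. Cluster 18, led by Vcan, Hsd17b2 and Cgnl1, held 24, 16 injured and 8 naive, and members made up 44.4% of its nuclei. Clusters 8, 5 and 9 held 14, 13 and 9 members. No member fell into clusters 3, 7, 11, 13, 17 or 20, which together with cluster 1 are led by genes such as Hpse2, Nxph1, Samd5, Rxfp1, Nms and Rnf207. Cluster 1 held 16.1% of Penk-free nuclei and 2.4% of members. Cluster 19, led by myelin genes, held 4 members, 1 injured and 3 naive.

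**Figure D1:**
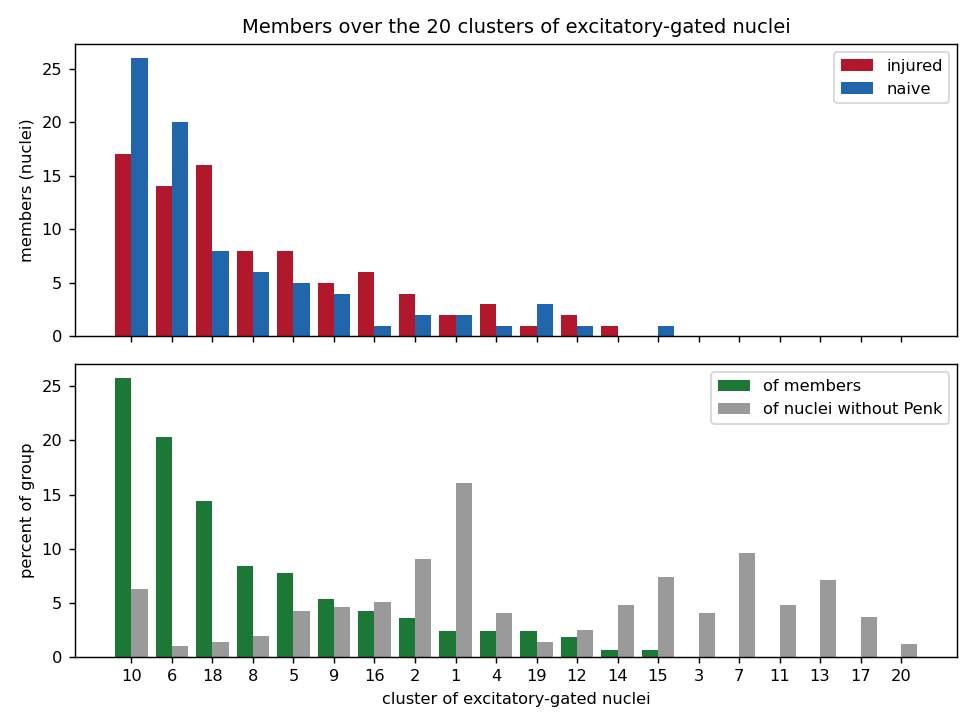
Upper panel: number of members per cluster (bars, injured left of naive). Lower panel: percent of all members and percent of all Penk-free nuclei in each cluster, both libraries together. Clusters 10, 6 and 18 hold 43, 34 and 24 of the 167 members, while Penk-free nuclei spread over all clusters, with 16.1% in cluster 1.

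Between members and Penk-free nuclei, Aldh1a2, the receptors Trhr and Drd2 and the transcription factor Prrxl1 were among the genes higher in members, and Meis2, Hpse2, Il1rapl2 and Rxfp1 were among those lower. UMIs were summed per library and class and tested over both libraries with library as a block. Of 9180 genes with at least 100 UMIs over the 4 sums, 558 (6.08%) passed an adjusted p of 0.05, 260 (2.83%) higher in members and 298 (3.25%) lower. All but 1 of them had the same direction in both libraries, and the median log2 difference over all tested genes was -0.005. The p-values rest on how far the difference between classes varied between the 2 pooled libraries, with estimates of spread shared over genes. They do not measure the spread between mice. DESeq2 called 145 genes, all among the 558, and leaving out the block left 260. Against the 284 Penk-free nuclei that also lacked the other peptides, 523 genes were called, 380 of them among the 558 with the same sign.

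Aldh1a2, the enzyme that makes retinoic acid from retinaldehyde, had the highest log2 difference. It reached 110.2 CPM in injured and 141 CPM in naive members, against 29.02 and 36.15 CPM in Penk-free nuclei, a log2 difference of 1.98 ± 0.15 (SE, 2 libraries; adjusted p = 1.59e-36). Both member values lay above both Penk-free values. An Aldh1a2 UMI was found in 57.5% of injured and 56.2% of naive members, against 14.6% of Penk-free nuclei in each library, and in 33.7% and 32.5% against 9.67% and 7.89% after each nucleus was thinned to 4000 UMIs. In Penk-rich inhibitory nuclei Aldh1a2 stood at 1.42 CPM (injured) and 0 CPM (naive). The gene (ENSMUSG00000013584) lies on chromosome 9 from 71215789 to 71296243, plus strand.

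Among receptor genes, Trhr, the receptor for thyrotropin-releasing hormone, stood at 43.3 CPM in injured and 55.7 CPM in naive members, against 15.9 and 8.79 CPM in Penk-free nuclei (log2 difference 1.98 ± 0.24, adjusted p = 1.13e-14). Drd2, the inhibitory D2 dopamine receptor, stood at 70.9 CPM in injured and 122.4 CPM in naive members, against 25.7 and 34.5 CPM (1.70 ± 0.17, adjusted p = 1.06e-21). For both genes the groups did not overlap, and the distance between the 2 member values was wider for Drd2. Antxr2, a cell surface receptor that binds matrix proteins and anthrax toxin, stood at 62 CPM in injured and 94 CPM in naive members, against 20 and 22.5 CPM (1.89 ± 0.19).

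Among transcriptional regulators, Prrxl1, a homeodomain factor needed for the circuits of the superficial dorsal horn, stood at 65 CPM in injured and 71.7 CPM in naive members, against 22.3 and 25.4 CPM in Penk-free nuclei (log2 difference 1.55 ± 0.20, adjusted p = 2.91e-13). Prdm8, a transcriptional repressor, stood at 31.5 and 32.2 CPM in members, against 9.76 and 9.44 CPM (1.76 ± 0.29). Both were about as high in injured as in naive members.

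Among abundant transcripts, Galntl6, of a family of sugar transferases, stood at 3184 CPM in injured and 3540 CPM in naive members, against 990 and 1010 CPM in Penk-free nuclei (1.79 ± 0.07). Adarb2, an RNA-binding relative of the RNA-editing enzymes, stood at 1791 and 1759 CPM in members, against 655.6 and 617.1 CPM (1.52 ± 0.08). Ankfn1 stood at 721.5 CPM in injured and 824.9 CPM in naive members, against 267.9 and 293.4 CPM, and the lipid-binding gene Osbpl3 and Cyyr1 had log2 differences of 1.38 and 1.37. Abi3bp, an extracellular matrix protein, stood at 172.2 CPM in injured and 256 CPM in naive members, against 81.7 and 56.7 CPM, with log2 differences of 1.08 in the injured and 2.18 in the naive library and 1.62 ± 0.12 over both.

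**Figure D2:**
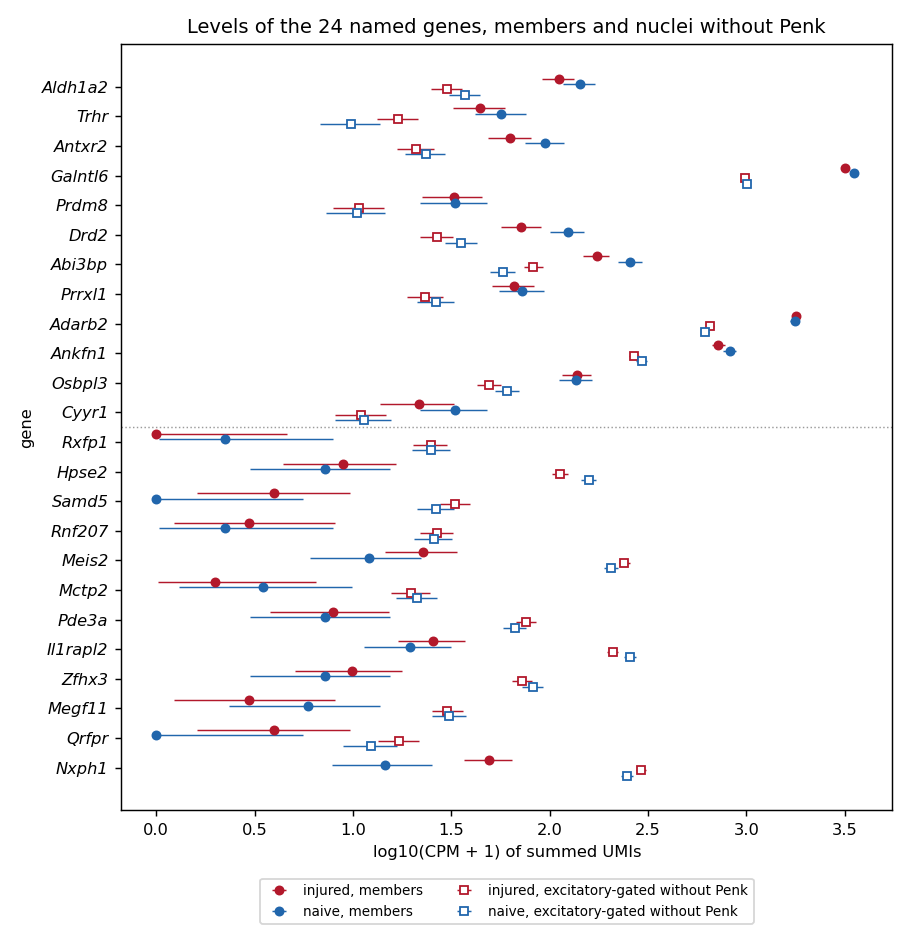
Levels of the 24 named genes as log10(CPM + 1) (x axis) in members (filled circles) and Penk-free nuclei (open squares) of the injured (red) and naive (blue) library; bars are 95% Poisson intervals. The upper 12 genes were higher in members and the lower 12 were lower. For each gene both circles lie on the same side of both squares. The same direction in both libraries was required for naming.

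Of the 12 lower genes, 6 had at most 4 UMIs in the members of either library. Rxfp1, a receptor for relaxin, had 0 UMIs in injured and 1 UMI in naive members, against 93 and 74 UMIs in Penk-free nuclei. A count of 0 allows up to 3.63 CPM in the injured members (upper limit of the 95% Poisson interval), against 23.9 CPM in the injured Penk-free nuclei. In the naive library the ratio was 0.0513 (95% interval 0.00128 to 0.295, counting error only), and the adjusted p over both libraries was 2.55e-13. Samd5 had 3 and 0 UMIs in members, Rnf207 had 2 and 1, Mctp2 had 1 and 2, Megf11 had 2 and 4, and Qrfpr, the receptor for the peptide QRFP, had 3 and 0, in the injured and naive library. The Penk-free nuclei held between 35 and 125 UMIs of each of these 5 genes per library. Rxfp1 and Qrfpr were leading genes of cluster 13, Megf11 of cluster 7, Samd5 of cluster 11 and Mctp2 of cluster 20. None of these clusters held a member. Rnf207 led cluster 1, which held 118 Penk-free nuclei and 4 members.

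Other low genes were measured with more UMIs. Meis2, a homeodomain transcription factor, stood at 21.7 CPM in injured and 11.1 CPM in naive members, against 238.8 and 204.2 CPM in Penk-free nuclei (log2 difference -3.68 ± 0.19, adjusted p = 2.50e-82). Meis2 was also a leading gene of cluster 7, which held 70 Penk-free nuclei and 0 members. Hpse2, heparanase 2, stood at 7.87 and 6.18 CPM in members, against 112 and 157 CPM (-4.16 ± 0.25). It led cluster 3, with 30 Penk-free nuclei and 0 members, at 1729 CPM, against 40.2 CPM in the other excitatory-gated nuclei. Pde3a, which breaks down cyclic AMP, stood at 6.89 and 6.18 CPM in members, against 75 and 65.5 CPM (-3.38 ± 0.29). In none of the 3 did the classes overlap, but naming had required the same direction in both libraries.

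Zfhx3, a zinc finger homeobox factor, stood at 8.86 CPM in injured and 6.18 CPM in naive members, against 71.4 and 81.1 CPM in Penk-free nuclei (-3.26 ± 0.27). It was a leading gene of clusters 1 and 20. Il1rapl2, a synaptic adhesion protein, stood at 24.6 and 18.6 CPM in members, against 208.3 and 256.6 CPM (-3.35 ± 0.17). An Il1rapl2 UMI was found in 17.2% of injured and 17.5% of naive members, against 21.3% and 20.2% of Penk-free nuclei. In cluster 20, with 9 Penk-free nuclei and 0 members, Il1rapl2 stood at 5643 CPM, against 61.3 CPM in the other excitatory-gated nuclei. Nxph1, a secreted ligand of neurexins, stood at 48.2 and 13.6 CPM in members, against 290.7 and 246.9 CPM (-3.03 ± 0.16). In cluster 7, with 70 Penk-free nuclei and 0 members, Nxph1 stood at 1961.5 CPM, against 78.2 CPM in the other excitatory-gated nuclei. The 2 member values of Nxph1 differed more from each other than those of the other 2 genes, and its difference in the naive library alone was -4.18. Of the 24 genes named, Prdm8, Abi3bp, Cyyr1, Mctp2 and Qrfpr missed the threshold in DESeq2, with adjusted p-values of 0.103, 0.109, 0.713, 0.0929 and 0.364.

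Levels were also read by the number of Penk UMIs in the nucleus. Galntl6 stood at 1075, 2245, 2762, 3600 and 3601 CPM in injured nuclei without other peptides that held 0, 1, 2, 3 and 4 or more Penk UMIs. In naive nuclei the same series was 1121, 1592, 2177, 3481 and 4360 CPM. Nuclei with 1 Penk UMI thus lay between the classes for Galntl6. Meis2 ran the other way, at 184.4, 113.6, 25.8, 30.7 and 11.48 CPM in injured and 175.8, 153.1, 27.5, 0 and 4.63 CPM in naive nuclei. Not every gene formed such a series, and within the rule's threshold Meis2 had no steady order. Abi3bp stood at 57.6, 196.4, 184.4, 134.9 and 172.2 CPM in injured nuclei, with its highest value at 1 Penk UMI, and at 50.1, 142.6, 251.1, 328.4 and 238.5 CPM in naive nuclei. Nuclei with exactly 1 Penk UMI set against Penk-free nuclei gave 79 called genes. The bins held 13 to 152 nuclei, and those with 4 or more Penk UMIs were the deepest, with medians of 12817 (injured) and 10340 UMIs (naive); the part of depth in the series was not tested.

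**Figure D3:**
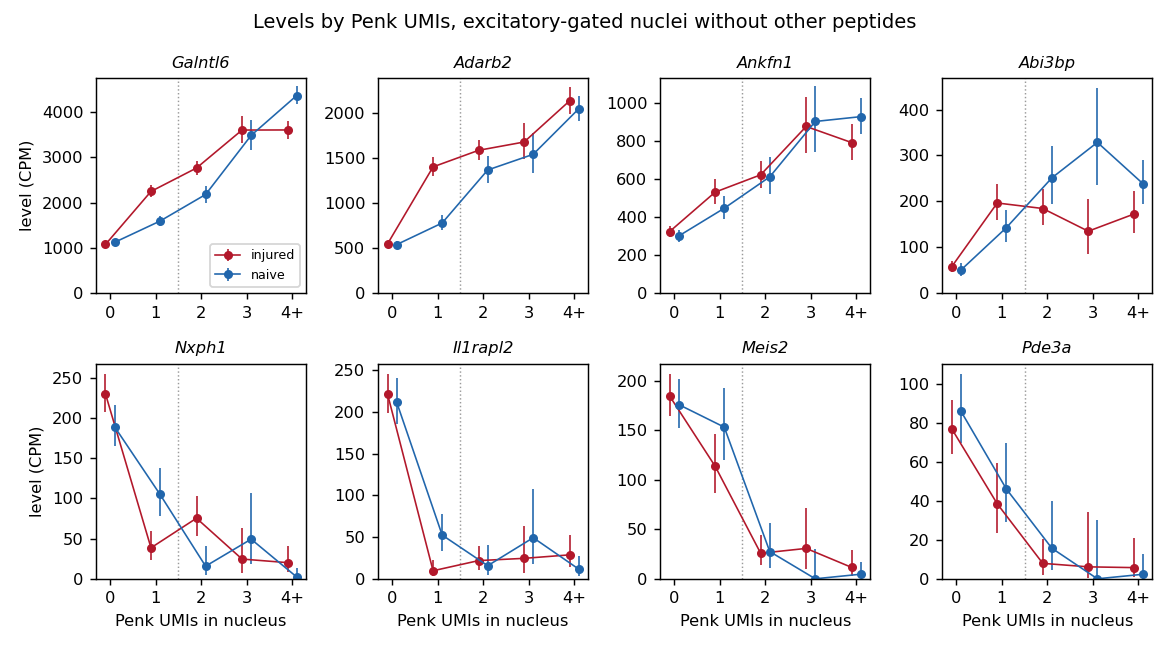
Level in CPM (y axis, from 0) by Penk UMIs per nucleus (x axis) in excitatory-gated nuclei without the other 5 peptides, injured red and naive blue, with 95% Poisson intervals, for the 4 higher and 4 lower named genes with the most UMIs. The dotted line is the rule's threshold. Galntl6 climbs to 3601 and 4360 CPM in the last bin, and Meis2 is at 11.48 and 4.63 CPM there.

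Of 23 tested genes of peptide processing and dense-core vesicles 1 was higher and 2 were lower (13% called, beside 6.08% of all genes tested), with a median log2 difference of -0.13. Pcsk2, prohormone convertase 2, which cuts proenkephalin, was lower, at 110.2 CPM in injured and 112.5 CPM in naive members, against 292.8 and 241 CPM in Penk-free nuclei (log2 difference -1.23 ± 0.12, adjusted p = 4.59e-23). Pcsk1, the other main convertase, stood at 113.2 and 102.6 CPM in members, against 91.4 and 94.1 CPM (adjusted p = 0.333). Among the alternatives, Pcsk1 passed only against the Penk-free nuclei that also lacked the other peptides. Cpe, the carboxypeptidase that trims the cut peptides, stood at 313 and 289.4 CPM, against 266.1 and 271.6 CPM (adjusted p = 0.276). Cadps2, a priming factor of dense-core vesicles, was lower at 20.7 and 19.8 CPM, against 68.6 and 67.7 CPM (-1.71 ± 0.22). Its relative Cadps stood at 1088 and 1118 CPM in members, against 1104 and 989.7 CPM (adjusted p = 0.558).

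Of the opioid receptors, Oprd1, the delta receptor and a main target of enkephalin, was higher, at 32.5 CPM in injured and 34.6 CPM in naive members, against 15.15 and 12.05 CPM in Penk-free nuclei (log2 difference 1.31 ± 0.26, adjusted p = 1.94e-05). DESeq2 gave it an adjusted p of 0.426. Oprm1, the mu receptor, stood at 97.4 and 147.2 CPM in members, against 117.6 and 115 CPM (adjusted p = 0.867). Oprk1, the kappa receptor for dynorphin, stood at 20.7 and 21 CPM, against 10.8 and 16.9 CPM (adjusted p = 0.246), and Oprl1, the nociceptin receptor, at 11.8 and 14.8 CPM, against 12.1 and 16.3 CPM (adjusted p = 0.977). The higher level in members thus passed the test for Oprd1 among these 4 receptors, and differences between receptors were not tested. The channel subunits Kcnj3 and Kcnj6, through which opioid receptors act, did not pass, at log2 differences of 0.18 and 0.23. Kcnj6 passed in 1 alternative, against the Penk-free nuclei that also lacked the other peptides.

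Of the neuropeptides outside the rule 2, Sst and Gal, had enough UMIs for the test, and neither passed. Nms, neuromedin S, had 0 UMIs in members of both libraries, against 39 and 41 UMIs in injured and naive Penk-free nuclei, too few for the test. Sst stood at 10.8 CPM in injured and 2.47 CPM in naive members, against 16.2 and 14.3 CPM (adjusted p = 0.1), and Gal at 6.89 and 30.9 CPM, against 16.2 and 40.1 CPM (adjusted p = 0.301). Grp, a peptide of itch circuits, had 3 and 7 UMIs in members. Nts, neurotensin, was found in 5.75% of injured and 6.25% of naive members, against 2.16% and 1.66% of Penk-free nuclei, and Gal in 6.9% and 27.5% of members, against 13.8% and 23.5%. Of 12 tested neuropeptide receptors 1, Trhr, was higher, and 3 were lower (33.3% called, beside 6.08% of all genes tested). The lower ones were Qrfpr, the orexin receptor Hcrtr2 (-2.01 ± 0.38) and the receptor of corticotropin-releasing hormone Crhr1 (-1.70 ± 0.44), and DESeq2 kept none of these 3 (adjusted p of 0.364 for Qrfpr and 0.416 for Hcrtr2). Tacr1, the substance P receptor, stood at 142.7 and 117.5 CPM in members, against 109.4 and 98 CPM (adjusted p = 0.0558).

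Genes that mark dorsal horn populations were mostly lower in members. Of 21 tested, 11 were lower, 3 were higher and 7 did not pass, with a median log2 difference of -0.70. That is 66.7% called, beside 6.08% of all genes tested (3.25% lower and 2.83% higher). Members were selected on marker peptides and the list was chosen with earlier results of these data known, so the share is a description. The summed level of the list ran the other way, at 7043 CPM in injured and 6870 CPM in naive members, against 5625 and 5408 CPM in Penk-free nuclei. Ntng1, netrin G1, a membrane-bound adhesion protein, stood at 51.2 CPM in injured and 43.3 CPM in naive members, against 429.6 and 351.7 CPM in Penk-free nuclei (-3.01 ± 0.14). Fam19a2, a secreted chemokine-like protein, stood at 32.5 and 40.8 CPM, against 302 and 246.2 CPM (-2.89 ± 0.15). Calb1, the calcium buffer calbindin, stood at 13.8 and 8.66 CPM, against 47.8 and 70.7 CPM (-2.29 ± 0.26). Of 45 tested transcription factors of excitatory dorsal horn neurons 9 were higher and 10 lower (42.2% called), with a median of -0.09. Besides Prrxl1, Prdm8, Meis2 and Zfhx3 as given, the 2 most abundant factors that did not pass were Rora and Tshz2, with log2 differences of -0.21 and -0.17.

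Receptor genes of fast transmission differed in both directions. Of 22 tested ionotropic glutamate receptor genes 4 were higher and 4 lower (36.4% called, beside 6.08% of all genes, 2.83% higher and 3.25% lower), and Grik1, a kainate receptor subunit, had the highest log2 difference, at 215.6 CPM in injured and 200.4 CPM in naive members, against 85.5 and 85.3 CPM in Penk-free nuclei (1.32 ± 0.12, adjusted p = 1.59e-27). Of 18 GABA and glycine receptor genes 1 was higher and 6 were lower (38.9% called). Of 8 metabotropic glutamate receptors Grm8 was higher (0.56 ± 0.08) and Grm3 lower (-0.54 ± 0.14), which is 25% called, the call of Grm3 being lost in DESeq2. The medians of these 3 groups, 0.13, -0.01 and -0.04, stood beside -0.005 over all genes.

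Monoamine receptor genes differed in both directions as well. Of 13 tested receptors of monoamines and acetylcholine 3 were higher and 4 lower (53.8% called). Htr1f, an inhibitory serotonin receptor, stood at 20.7 CPM in injured and 18.6 CPM in naive members, against 142 and 86 CPM in Penk-free nuclei (-2.53 ± 0.20). Htr2a, an excitatory serotonin receptor, stood at 32.5 and 39.6 CPM in members, against 14.9 and 13.7 CPM (1.35 ± 0.25), with an adjusted p of 0.339 in DESeq2. Htr7 was lower, at -1.27 ± 0.18, with an adjusted p of 0.0598 in DESeq2.

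Adhesion and guidance genes differed in both directions, and 47.7% of the adhesion list, 41.2% of the guidance list and 47.6% of the cadherin list were called, beside 6.08% of all genes. Of 44 tested contactins, neurexins and synaptic adhesion genes 15 were higher and 6 lower, with a median of 0.14. Cntn3, contactin 3, stood at 1299 CPM in injured and 1466 CPM in naive members, against 625.1 and 584.6 CPM in Penk-free nuclei (1.23 ± 0.08). Erbb4, the neuregulin receptor, stood at 124 and 90.3 CPM, against 427.8 and 462.1 CPM (-2.00 ± 0.11). Of 34 axon guidance genes 8 were higher, among them Slit3 (1.35 ± 0.13) and Sema5a (0.70 ± 0.08), and 6 were lower, among them Ntng1 and Dcc (-0.69 ± 0.08). Of 21 cadherins and protocadherins 4 were higher, among them Cdh7 (1.11 ± 0.11), and 6 lower, among them Cdh8 (-1.30 ± 0.11) and Pcdh11x (-1.28 ± 0.12). Of 40 potassium and HCN channel genes 9 were higher and 5 lower (35% called). Among the lower was Kcnn2, a calcium-activated channel, at 148.6 and 192.9 CPM in members, against 360.3 and 329.9 CPM (-0.995 ± 0.11). Of 14 sodium channel genes 1 was lower, and of 18 calcium channel genes 2 were higher and 2 lower (22.2% called). None of the 4 immediate early genes and 10 heat shock genes tested passed; with 6.08% called over all genes, these counts and that of the sodium channels (7.14%) are near the background.

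**Figure D4:**
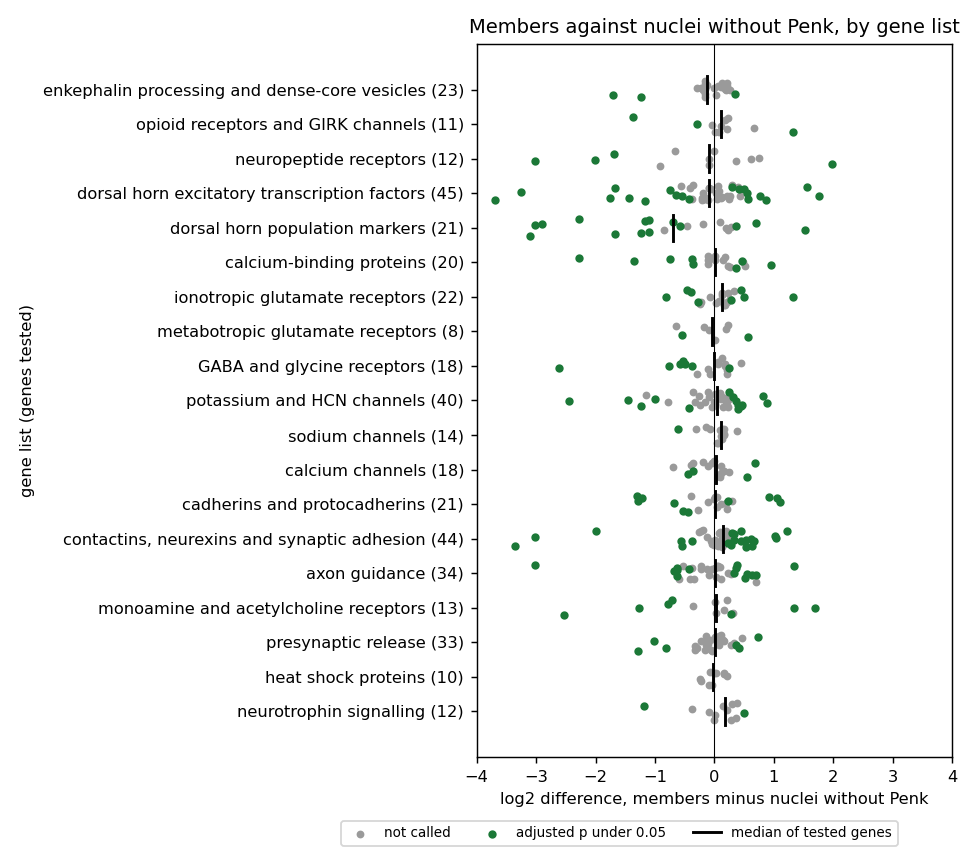
Log2 difference of each tested gene, members minus Penk-free nuclei (x axis), by gene list (y axis, number tested in brackets), with called genes green, others grey and the list median as a bar. Of the lists plotted, population markers have the lowest median, -0.70, beside -0.005 over all tested genes.

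Members and Penk-free nuclei spread differently over the clusters, so the fit was repeated within the 6 clusters that each held over 5% of members, an alternative chosen after the data had been seen. It set 137 members against 142 Penk-free nuclei and called 152 of 5013 genes, of which 112 were among the 558 with the same sign. Zfp804b (0.46 within these clusters and -1.14 over all), Pld5 (-0.39 and 0.28) and Runx1t1 (0.86 and -0.41) were called in both fits with opposite signs. Meis2 (-3.39), Pde3a (-3.95) and Fam19a2 (-3.30) stayed called within these clusters. For Meis2 and Pde3a this rested mainly on cluster 9, with 9 members and 34 Penk-free nuclei, where members held 10 Meis2 UMIs and 1 Pde3a UMI, against 201 and 91 in Penk-free nuclei. Galntl6 (1.13), Antxr2 (1.16), Adarb2 (0.75), Ankfn1 (0.78), Prrxl1 (0.86) and Osbpl3 (0.75) stayed called at smaller values, and so did Grik1 (1.03), Slit3 (1.06), Pcsk2 (-0.83) and Kcnn2 (-0.82). Aldh1a2 (0.33, adjusted p = 0.51), Trhr (0.73, adjusted p = 0.166), Drd2 (0.59, adjusted p = 0.0752) and Abi3bp (0.10, adjusted p = 0.915) did not pass. Ntng1 (-0.85, adjusted p = 0.0728), Erbb4 (-0.43, adjusted p = 0.381), Sema5a (0.26, adjusted p = 0.125), Dcc (-0.04, adjusted p = 0.964), Htr7 (-0.58, adjusted p = 0.405) and Grm3 (-0.01, adjusted p = 0.995) did not pass either. Of the 24 named genes 12 had enough UMIs for this fit, 10 of them higher and 2 lower in members, and 8 of the 12 stayed called. Within cluster 10, both libraries together, Abi3bp was at 710 CPM in members and 674 CPM in Penk-free nuclei, and Aldh1a2 at 219 and 282 CPM. In the same cluster Galntl6 was at 2787 CPM in members and 2768 CPM in Penk-free nuclei, Adarb2 at 1562 and 1740 CPM, Prrxl1 at 37.3 and 54.9 CPM, and Meis2 at 9.31 and 7.49 CPM. In cluster 9 Galntl6 was at 2587 CPM in members and 593.2 CPM in Penk-free nuclei, so the joint fit still mixed clusters of unlike makeup.

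Members were then set against 232 excitatory-gated nuclei (94 injured, 138 naive) with at least 2 Penk UMIs and at least 1 UMI of Pdyn, Tac1, Adcyap1, Cck or Tac2. This set Penk-rich nuclei without other peptides against Penk-rich nuclei with them. Of 6424 genes 82 (1.28%) passed, 44 (0.685%) higher and 38 (0.592%) lower in members, and 584 had an unadjusted p under 0.05. DESeq2 called 0, with 31 genes at an unadjusted p under 0.05, and the fit without the block called 2.

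Those 2 were Glra1 and Hs3st4. Glra1, the adult alpha1 subunit of the glycine receptor, stood at 110.2 CPM in injured and 116.3 CPM in naive members, against 61.6 and 58.5 CPM in Penk-rich nuclei with other peptides (log2 difference 0.92 ± 0.16). Hs3st4, a heparan sulfate sulfotransferase, stood at 91.5 and 92.8 CPM, against 185.7 and 174 CPM (-0.96 ± 0.14). Both genes remained called with nuclei split into Xist and Y-linked subpools. The other genes named by rank were Stxbp6, Zmat4, Nexn, Enpp2 and Col8a1, higher by 0.87 to 1.48 on the log2 scale, and Nckap5, Dlk1, Gabrg1, Kcnip3 and Necab1, lower with values from -1.34 to -0.95. Fam19a2 was lower (-0.92, adjusted p = 0.00364), and Alk, a receptor tyrosine kinase, was lower (-0.78 ± 0.10), at 261.8 and 342.6 CPM in members, against 669.6 and 384.5 CPM. The Alk levels differed more between libraries in the nuclei with other peptides than in members. Aldh1a2, Trhr, Antxr2, Drd2 and Prrxl1 did not pass here, at log2 differences between -0.07 and 0.07.

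The injured library was set against the naive library within members, with no replicate of either pool. Members made up 12.9% of 673 excitatory-gated nuclei (95% exact binomial interval 10.5 to 15.7) in the injured and 11.3% of 709 (9.05 to 13.8) in the naive library. Nuclei thinned to 4000 UMIs gave 7.36% and 8.97%, and a threshold of 3 Penk UMIs gave 6.24% and 7.48%, so the order turned. Penk itself stood at 108.7 CPM (101.3 to 116.5) in injured and 170.7 CPM (160.6 to 181.1) in naive excitatory-gated nuclei, and at 36.4 and 62.9 CPM in inhibitory nuclei.

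Of 3310 genes with at least 100 UMIs in members 4 (0.121%) lay past 2-fold, all higher in the injured library, and the median log2 ratio was 0.00. Zfp521, a zinc finger factor, stood at 86.6 CPM in injured and 34.6 CPM in naive members, a ratio of 2.50 (1.62 to 3.98, counting error only), while in Penk-free nuclei the ratio was 1.14 (1.01 to 1.28). Arhgap6, a GTPase activator, stood at 105.3 and 45.8 CPM, a ratio of 2.30 (1.57 to 3.44), with 1.44 in Penk-free nuclei. Pde1c, a calmodulin-dependent phosphodiesterase, and Kcnk10, a leak potassium channel, each had a ratio of 2.04 (1.34 to 3.17), with 1.06 and 0.982 in Penk-free nuclei. Past these, Mipol1, Pcdh11x, Mapk4 and Tshz2 had ratios of 1.99 to 1.80.

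The lowest ratios were those of Rhd (0.502, 0.349 to 0.717), Map1a (0.512, 0.344 to 0.755) and Prox1 (0.521, 0.381 to 0.708). Prox1, a homeodomain factor, stood at 70.9 CPM in injured and 136 CPM in naive members, with a ratio of 1.01 in Penk-free nuclei. Ezh1, Cenpp, Galnt7, Hs3st2 and the chaperone gene Hspa8 had ratios of 0.522 to 0.554, and Hspa8 was also lower in the injured Penk-free nuclei (0.663). Beside these ratios, injured members lay less in cluster 10 (17 of 87, against 26 of 80 naive) and more in cluster 18 (16 of 87, against 8 of 80), and their oligodendrocyte markers were lower, at 74.8 CPM, against 153.4 CPM in naive members. The part of these differences in the ratios was not tested.

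**Figure D5:**
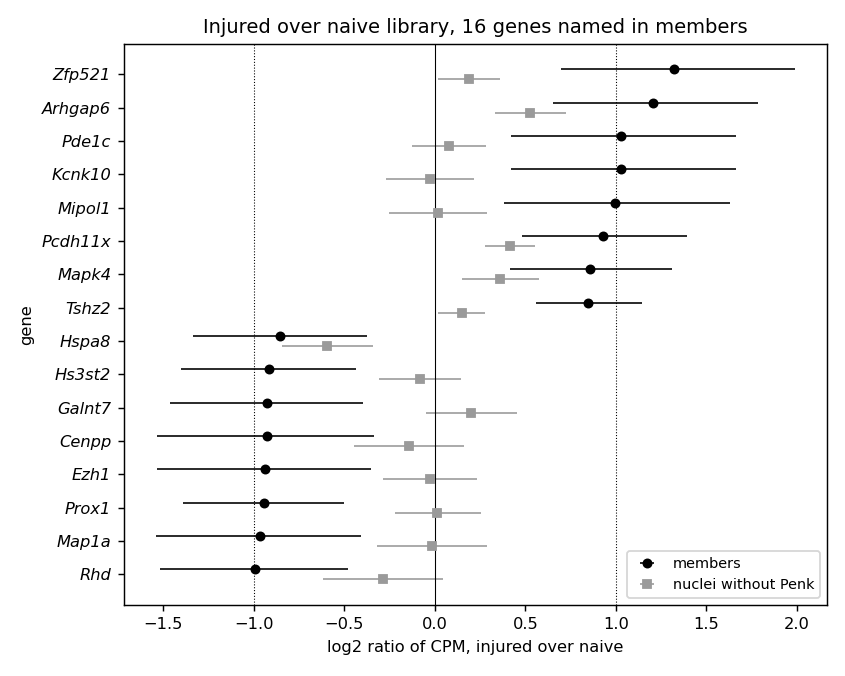
Log2 ratio of CPM, injured over naive (x axis), for the 8 highest and 8 lowest named genes in members (circles) with the ratio of Penk-free nuclei beside it (squares); bars are 95% intervals that cover counting error only, and dotted lines mark 2-fold. Zfp521, at a ratio of 2.50 in members, is at 1.14 in Penk-free nuclei.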

How the data were processed

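The authors deposited a table of raw UMI counts for 19575 genes in 7610 nuclei and, per library, natural log (ln) values, which equal ln(1 + 10000 × count / total), as checked on 500 genes. Per the submitters' processing notes, Cell Ranger 3.0.2, Seurat and mm10 were used; for filters and intronic counting, the setting is not given in the sources used here. Nuclei were assigned to libraries by the headers of the per-library files. No nucleus was left out, and doublets were not removed.

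Deposited counts were summed per library and class and tested with edgeR 4.0.16 (quasi-likelihood, TMM, library as block, Benjamini-Hochberg, R 4.3.3) on genes with at least 100 UMIs, without the 11 genes of the rule; the procedure was tested on simulated data. SE is the log2 difference over the square root of F. DESeq2 1.42.0 was an alternative. Poisson, Clopper-Pearson and conditional binomial intervals (95%) cover counting error only, not mice. Excitatory-gated nuclei were clustered with scanpy 1.11.5 (2000 variable genes, 20 components, 15 neighbours, resolution 1). Named genes were the 12 highest and 12 lowest called log2 differences (6 for the second contrast) with the same direction in both libraries. For ratios they were the 8 highest and 8 lowest. Predicted, ribosomal, mitochondrial and sex-linked marker genes were excluded. From gene lists, up to 4 called genes and the 2 most abundant others could be named. Coordinates come from GENCODE (GRCm38). Members and lists were chosen with earlier results of these data known.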

Additional observations from a re-analysis of the deposited data

Results flagged for a closer look

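Of the 3310 genes measured, predicted, ribosomal, mitochondrial and sex-linked marker genes were set aside here. Among the rest, 19 had injured over naive ratios on opposite sides of 1 in members and Penk-free nuclei, neither 95% counting interval reaching 1. The difference between classes was not tested, and each library is 1 pool. Of the 19 genes, 8 are named or listed genes. Lower in injured members and higher in injured Penk-free nuclei were Abi3bp (0.673 in members and 1.44 in Penk-free nuclei), Alk (0.764 and 1.46), Cntn3 (0.886 and 1.07), Kcnn2 (0.77 and 1.09) and the guidance cue Sema3d (0.696 and 1.35). Higher in injured members and lower in injured Penk-free nuclei were Erbb4 (1.37 and 0.926), the kainate receptor subunit Grik5 (1.51 and 0.824) and Pcdh17 (1.32 and 0.875). Abi3bp leads cluster 10, which held 17 of 87 injured and 26 of 80 naive members.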

How the results depend on the processing

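The 558 genes called between members and Penk-free nuclei became 145 with DESeq2, 260 with no replicate block, 359 without the 10% of nuclei with most UMIs, 152 within the clusters holding over 5% of members and 79 for nuclei with exactly 1 Penk UMI; the other 8 alternatives gave 398 to 571. Members and Penk-free nuclei were paired by library through that block. For injured against naive, no paired analysis was possible because each pool was 1 library. Against Penk-rich nuclei with other peptides, the 82 calls became 0 with DESeq2, 2 with no replicate block, 15 with a Penk threshold of 3, 19 without the deepest 10%, 43 with nuclei matched by total UMIs and 11 with Xist and Y-linked subpools. The causes were not tested. Among the 79 genes followed by name, log2 differences turned sign for Grin3a (0.00279), Kcnh8 (0.0467) and Cacna2d3 (0.00566) with exactly 1 Penk UMI. Within clusters they turned for Rgs7 (0.0734) and Glra3 (0.48). Outside these genes, Zfp804b, Pld5 and Runx1t1 were called within clusters with the other sign. Of the 24 named genes, 5 missed the threshold in DESeq2, 9 of 22 tested with exactly 1 Penk UMI and 4 of 12 tested within clusters. Leaving out 1 library at a time left 22 (without injured) and 23 (without naive) of the 24 with a value. Their sign was fixed in advance, since naming required the same direction in both libraries. Abi3bp moved (2.18 and 1.08), as did Nxph1 without the injured (-4.18) and Galntl6 without the naive library (1.69). The 4 genes past 2-fold between libraries became 2 without the 10% of members with most UMIs, and the log2 ratio of Alk turned to 0.059 in nuclei with only Y-linked UMIs. Shares of members of 12.9% (injured) and 11.3% (naive) became 7.36% and 8.97% after thinning to 4000 UMIs and 6.24% and 7.48% with a Penk threshold of 3. Without the filter of 100 UMIs, 567 genes were called between members and Penk-free nuclei, 493 of them among the 558 with the same sign.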
